A study of Mus musculus with 3 samples.

Results

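The set described here consisted of 548 promoter probes that stood high on an H3K9me2 ChIP array and at an ordinary level on 2 PRDM2 ChIP arrays of C2C12 cells, a mouse myoblast line. Cells on all 3 arrays had been arrested in G0, the non-dividing state, by suspension in 2% methylcellulose, then cross-linked with 1% formaldehyde, which was stopped with 0.125 M glycine. Precipitated (IP) DNA carried Cy5 and input DNA carried Cy3 on a custom Agilent array of mouse promoters, with no dye exchange. The labels named no separate cultures for the PRDM2 arrays, and no growing cells and no control antibody were analysed here. The labels named 1 cell line and no genetic change, and arrays of DNA could not check the cells by marker expression.

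Members were chosen from measured values. The ratio used throughout was log2 of IP over input, each the processed signal of the scanner software, which is subtracted for background and normalized between dyes. Of 237203 probes outside the controls, 228196 were autosomal, 126428 of these had 35 to under 45% GC, and 118736 of these also had input well above background on all 3 arrays; the last are called eligible. The H3K9me2 cut of the top 3% stood at a ratio of 2.47, or 5.55-fold, and 3563 eligible probes passed it. The cuts of the top 25% stood at -0.48 and -0.54 on PRDM2 arrays 1 and 2, and 63.5% of eligible probes lay under both. The whole rule kept 548 probes, 0.462% of the eligible ones and 15.4% of those past the H3K9me2 cut. Of the other 3015 probes past that cut, 2061 were in the top 25% on both PRDM2 arrays, 664 on array 1 only and 290 on array 2 only. Since the rule used all 3 ratios, and H3K9me2 was measured on a single array, the values below are descriptions with no test.

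Dimethylation of lysine 9 of histone H3 is a mark of silent chromatin. It is laid down mainly by the enzymes G9a and GLP, often over broad domains that hold genes of other lineages, such as those of sensory receptors. PRDM2, also called RIZ1, is a zinc finger protein with a PR domain, a relative of the SET domain of histone methyltransferases.

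The probe sequences shown let the composition of the members be seen: the 5 members with the highest H3K9me2 ratio, both members of the pairs at the Aadac and Ggnbp2 promoters, and a member just before the start of Olfr998. Each was read from the array file as listed there, 5′ to 3′, with CpG dinucleotides in capitals. Positions are those of the array design, and neither labels nor headers name their genome build.
Oxsm, chr14:15045155-15045209: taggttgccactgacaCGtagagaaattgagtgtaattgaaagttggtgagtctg
Olfr481, chr7:107871094-107871153: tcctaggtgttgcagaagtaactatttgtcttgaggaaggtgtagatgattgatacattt
Bnip3l, chr14:65964700-65964759: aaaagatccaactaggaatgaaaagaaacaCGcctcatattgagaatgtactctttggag
Prl6a1, chr13:27319553-27319612: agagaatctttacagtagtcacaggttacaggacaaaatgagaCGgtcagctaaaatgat
Olfr1008, chr2:85489795-85489854: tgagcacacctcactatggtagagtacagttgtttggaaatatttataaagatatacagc
Aadac, chr3:60118419-60118478: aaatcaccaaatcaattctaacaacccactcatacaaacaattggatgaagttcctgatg
Aadac, chr3:60118928-60118987: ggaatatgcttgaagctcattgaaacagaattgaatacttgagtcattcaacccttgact
Ggnbp2, chr11:84688051-84688110: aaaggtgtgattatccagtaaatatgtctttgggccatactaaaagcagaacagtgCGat
Ggnbp2, chr11:84688373-84688432: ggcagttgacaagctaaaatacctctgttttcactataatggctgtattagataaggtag
Olfr998, chr2:85391198-85391257: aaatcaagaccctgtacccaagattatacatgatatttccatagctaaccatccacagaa
Of these probes, those of Olfr481, Olfr1008, Olfr998 and Aadac and 1 of the Ggnbp2 pair held no CpG, and the others held 1 each.

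Members were poor in CpG and stood away from CG-rich DNA. Of the 548 members, 400 (73.0%) held no CpG, against 57.6% of eligible probes, 58.9% of eligible probes weighted to the members' GC and length, and 71.6% of the other probes past the H3K9me2 cut. The rule kept 0.585% of eligible probes without CpG, 0.321% of those with 1, 0.250% of those with 2 and 0.134% of those with 3 or more. A probe of at least 55% GC lay within 1000 bp of 94 members (17.2%), against 43.4% of eligible probes (38.7% weighted) and 30.7% of the other probes past the cut. The members' GC leaned to the low end of the window: 61.7% had under 38% GC against 32.9% of eligible probes, and the share of eligible probes that were members went from 0.949% at 35 to 36% GC to 0.0365% at 44 to 45% GC. Probes of the full 60 nt made up 83.6% of members and 45.4% of eligible probes. A homopolymer of 5 or more bases was in 20.3% of members and 25.1% of eligible probes (29.8% weighted).

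Few members covered a transcription start. Matching probe sequences to the RefSeq windows of GRCm38 from 250 bases before to 50 after each gene's start placed 9 members (1.64%) in such a window, against 4.28% of eligible probes and 3.18% of the other probes past the cut. All 9 were named for receptors of sensory or immune cells. The member of Olfr998, an olfactory receptor, was centred 121 bases before the start, with an H3K9me2 ratio of 3.55 and PRDM2 ratios of -1.38 and -1.64. The member of Olfr807 was centred 1 base from the start, with ratios of 2.87, -0.54 and -0.69 on the H3K9me2 array and PRDM2 arrays 1 and 2. Klra5, a receptor of the Ly49 family of natural killer cells, had its member 181 bases before the start, at 2.91, -1.57 and -0.71. Mrgprb2, a receptor of mast cells, had its member at 176.5 bases before the start, at 2.76, -0.77 and -0.58. The other members lay elsewhere in the tiled promoters, and whether they fell in exons or introns was not determined.

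Members had a low input signal and a moderate IP signal. On the H3K9me2 array the ratio of members ranged from 2.47 to 4.86 with a median of 2.78, against -1.09 for eligible probes. Their median log2 input was 7.19 against 9.33, 4.39-fold lower, and their median log2 IP was 10.09 against 8.10, 3.97-fold higher. The other probes past the cut reached the like ratio of 2.82 with input of 9.05 and IP of 12.00. The members' medians were thus below those of the other probes past the cut, by 3.61-fold in input signal and 3.76-fold in IP signal. These are signals of different probes, which differ in sequence (mean GC of 37.4% and 39.0%, mean length of 59.4 and 57.2 nt), and do not measure amounts of DNA.

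Input was also lower on the other 2 arrays. On PRDM2 arrays 1 and 2 the members' median ratios of -1.19 and -1.16 stood beside -1.23 and -1.16 for eligible probes, as the rule allows. Input fell short of the eligible median by 2.01-fold and 1.70-fold, and IP by 1.94-fold and 1.67-fold. PRDM2 IP was well above background at 191 members (34.9%) on array 1 and 203 (37.0%) on array 2, against 77.6% and 70.4% of eligible probes, so for most members the ordinary PRDM2 ratio rested on an IP signal not well above background. On the H3K9me2 array the IP of all 548 members was well above background. Input lay below the eligible median on all 3 arrays for 463 members (84.5%), 48.8% of the other probes past the cut and 38.3% of eligible probes; it lay above on all 3 arrays for 17 members.

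**Figure D1:**
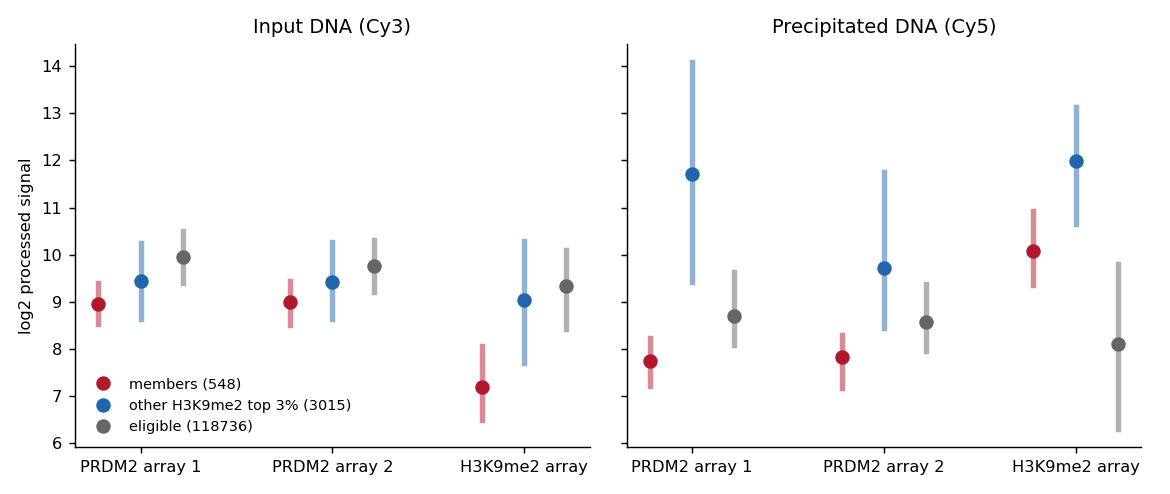
Median (points) and quartiles (bars) of log2 processed signal of input and IP on each array, for 548 members, the other 3015 probes past the H3K9me2 cut and all 118736 eligible probes. Members lie lowest in input on every array, at 7.19 on the H3K9me2 array, and lowest in IP on both PRDM2 arrays.

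By decile of eligible probes in input on the H3K9me2 array, the lowest decile held 311 members (56.8%) and the highest held 4. The same decile held 20.4% of the other probes past the cut, and the highest held 16.1%. Whether low input contributed to the members' ratios was not tested. Requiring input above the lowest 25% on every array, a setting chosen after the data were seen, gave 132 probes, of which 53 were members, or 9.67% of the 548. Mean signals corrected for background by normexp with an offset of 50 gave 345 probes, of which only 39 were members. That setting also left out the software's detrending and normalization between dyes.

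**Figure D2:**
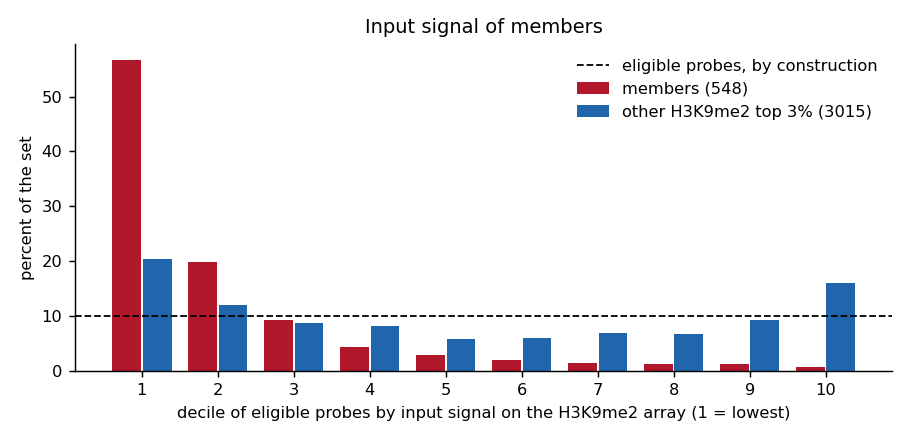
Share of members (red) and of the other probes past the H3K9me2 cut (blue) in each decile of eligible probes by input on the H3K9me2 array; the dashed line is the 10% that eligible probes have by construction. The lowest decile held 56.8% of members and 20.4% of the other probes.

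The 5 highest members lay at 5 promoters, 2 of them of olfactory receptor genes. Oxsm, which encodes the mitochondrial beta-ketoacyl synthase of fatty acid synthesis, had an H3K9me2 ratio of 4.86, with a software error of 0.50, and PRDM2 ratios of -1.54 and -1.10. Its processed intensities on the H3K9me2 array were 130 for input and 3766 for IP. The other 7 eligible probes of that promoter had a median of -0.86, so the high value was not shared there. Bnip3l, a receptor for the removal of mitochondria, had 3.92 on the H3K9me2 array, PRDM2 ratios of -1.70 and -1.54, and a median of 1.59 over the other 7 eligible probes of its promoter. Prl6a1, a placental relative of prolactin, had 3.89, PRDM2 ratios of -1.56 on both arrays and 0.59 over its other 10 eligible probes, of which 2 were also past the H3K9me2 cut.

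Olfactory receptor genes held the second and the fifth rank. Olfr481 stood at 4.06, with PRDM2 ratios of -1.28 and -1.58 and a median of -1.12 over its other 10 eligible probes. Olfr1008 stood at 3.87, with PRDM2 ratios of -2.20 and -1.06, which differed by more than for the other 4. The median absolute difference between the PRDM2 arrays was 0.40 for members and 0.55 for eligible probes.

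At the edges of the rule the values ran on without a step. Just inside the H3K9me2 cut stood Cth, Yeats2 and Ptpla, each at 2.47, and just outside stood Zcchc7, C2 and B3galt2, also each at 2.47. The software's median error of the H3K9me2 ratio was 0.34 for members, and 291 members (53.1%) lay within 1 such error of the cut. Beneath the cut, 397 eligible probes with ordinary PRDM2 lay within 1 error of it. At the cut of PRDM2 array 1, Etaa1, Ccdc70 and Trim9 were just inside at -0.49, and Gosr1 and Dpyd, just outside, were at -0.47. At the cut of PRDM2 array 2, Lce1f, Aprin and Cox7b2 were inside at -0.55, and Olfr791, Noc3l and Rnf32 outside at -0.54.

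Members were spread over 510 of 15616 promoters with an eligible probe (3.27%), under 510 gene names, and 21 members had no gene name. Of the 510 names, 44 were predicted genes or clones. No promoter held 3 members, and 17 held 2, where promoters with a member had a median of 8 eligible probes. With the members left out, the 501 promoters that held a further eligible probe had a median H3K9me2 ratio of -0.68 over those probes, against -1.11 for the 15106 promoters without a member. The promoters with a member were also lower in GC, with a median of 37.9% against 41.8%.

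The promoters with 2 members belonged to genes of varied roles. At Aadac, an esterase of the liver, the members of the sequences above read 3.14 and 3.48 on the H3K9me2 array, and PRDM2 ratios were -0.84 and -2.02 on array 1 and -1.95 and -0.89 on array 2. The other 2 eligible probes of Aadac had a median of 2.04. At Ggnbp2, a gene with a role in spermatogenesis, the members read 3.43 and 2.80 and the other 4 eligible probes had a median of -0.93.

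Stam, an adaptor of endosomal sorting, had members at 2.85 and 3.32 and a median of -0.21 over its other 9 eligible probes. Slc30a8, the zinc transporter of insulin granules, had members at 3.13 and 2.89 and a median of -1.58 over the other 10. Trpm3, a cation channel of sensory neurons, had members at 2.87 and 3.05 and a median of -1.37 over the other 11. At these 3 promoters no other eligible probe was past the H3K9me2 cut. Tfg, a protein of endoplasmic reticulum exit sites, had members at 2.84 and 2.74 and a median of -1.85 over the other 8. Rab7l1, a small GTPase, had members at 2.88 and 2.71 and a median of -0.49 over the other 6. Zfp40, a zinc finger gene, had members at 3.05 and 2.65 and a median of -1.30 over the other 10. Ceacam12 of the carcinoembryonic antigen family had members at 2.90 and 2.50 and a median of -0.20 over the other 11.

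The promoters with the most eligible probes and no member were those of Dennd2d, Tm2d3, Gjb6, Acsl6 and Elovl1, with 24 to 31 eligible probes each. Of these promoters only Dennd2d held probes past the H3K9me2 cut, 2 in number. Median H3K9me2 ratios of the eligible probes ran from -1.81 at Gjb6, a gap junction protein, to -0.67 at Acsl6, an acyl-CoA synthetase. Several promoters with 2 members had medians in this range over their other eligible probes.

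Olfactory receptors, the odorant receptors of the nose, were the most frequent gene group among members. They gave 96 of 548 members (17.5%) and 3.59% of eligible probes, or 4.65% of eligible probes weighted to the members' GC and length. They also gave 325 of the other 3015 probes past the H3K9me2 cut (10.8%). Of their 4259 eligible probes 9.88% were past that cut, against 3% of all eligible probes. The whole rule kept 2.25% of the 4259, against 0.462% of all eligible probes, and 93 of 771 olfactory receptor genes had a member. The group as a whole was higher in H3K9me2, with a median ratio of -0.13 over its eligible probes against -1.12 for all others, and lower in input, at 8.47 against 9.35. PRDM2 ratios of the group, -1.11 and -1.05, were close to the -1.23 and -1.17 of the others. Of the 96 olfactory members, 85.4% held no CpG, against 75.4% of the group's eligible probes, and none had a probe of 55% GC or more within 1000 bp, against 1.88% of the group's eligible probes.

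With input above the lowest 25% on every array, olfactory receptors gave 4.55% of the probes kept and 2.49% of the eligible ones, and with normexp 4.35% and 3.59%. At 40 to under 45% GC the shares were 4.88% and 2.43%, and at the top 1% of H3K9me2 22.4% and 3.59%. The part of input in the group's share was not tested. Among chromosomes, the group's share of members was highest on chromosome 16, with 7 of 131 eligible probes (5.34%), and chromosome 9, with 26 of 603 (4.31%). It was 11 of 945 (1.16%) on chromosome 7, which carries the most olfactory probes, and 0 of 55 on chromosome 15. The olfactory promoters with 2 members were Olfr275 at 2.87 and 2.90, Olfr1257 at 2.71 and 3.04, and Olfr971 at 2.82 and 2.91. The other 4 eligible probes of Olfr971 had a median of 0.47, and the other 7 of Olfr275 had -2.66.

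**Figure D3:**
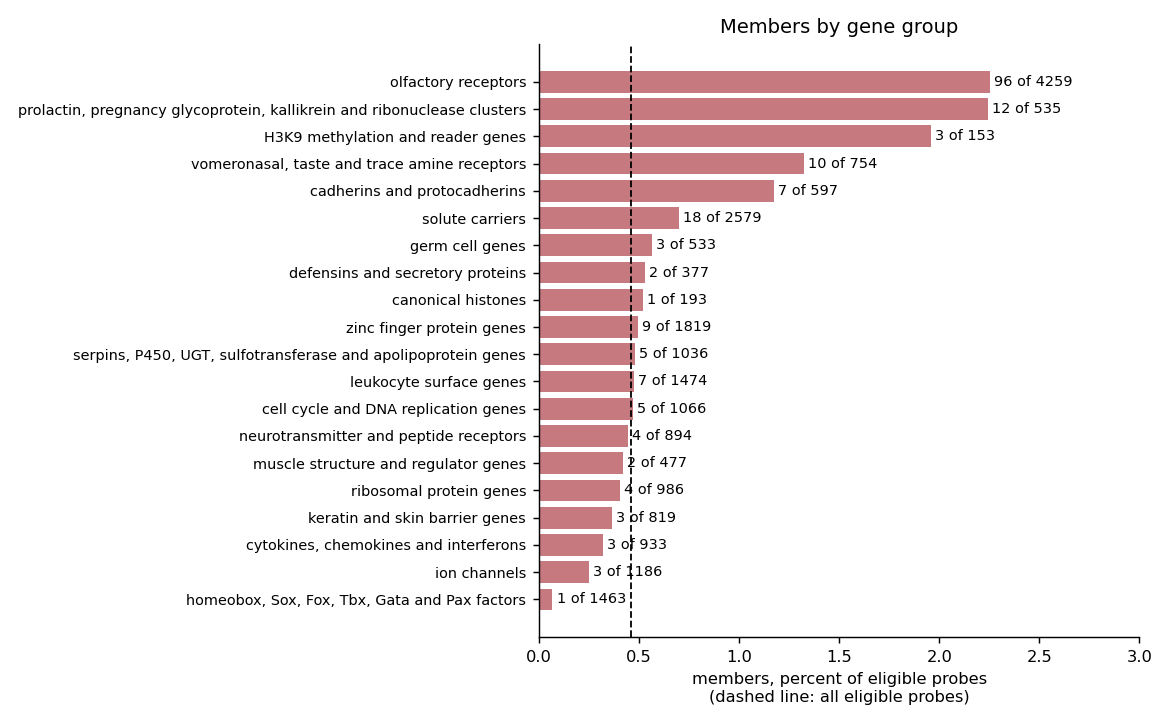
Members as a percent of the eligible probes of each of 20 gene groups, with counts beside the bars; the dashed line marks the 0.462% of all eligible probes. Olfactory receptors (2.25%) and the prolactin and related clusters (2.24%) lie highest, and the group labelled homeobox, Sox, Fox, Tbx, Gata and Pax factors (0.0684%) lowest. Groups are sets of name patterns and miss some genes of the kind named.

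Some other clustered families of receptors and secreted proteins followed, while others, given below, were near or under the background of 0.462%. Prolactin, pregnancy glycoprotein, carcinoembryonic antigen, kallikrein and ribonuclease genes had 12 members of 535 eligible probes (2.24%). The group's median H3K9me2 ratio of -0.91 was nevertheless close to that of all eligible probes. Of these 12, 9 were at prolactin genes, from 125 eligible probes of that name in the prolactin cluster. The others were at Ceacam12 and a kallikrein gene, and none was named for a pregnancy glycoprotein or a ribonuclease. Vomeronasal, taste and trace amine receptors, which sense pheromones, bitter or sweet compounds and amines, had 10 of 754 (1.33%) and a group median of -0.16. Of these 754 probes 8.89% were past the H3K9me2 cut, and 14.9% of those were members, against 15.4% of all probes past the cut. Among these receptors, V1ri6 stood at 3.29, V1rc28 at 3.11 and the bitter receptor Tas2r115 at 3.11. Cadherins and protocadherins, cell adhesion molecules, had 7 of 597 (1.17%), all on chromosome 18, which is not described further here. Solute carriers had 18 of 2579 (0.698%), among them the amino acid transporter Slc6a15 at 3.41 and the organic anion transporter Slco1c1 at 3.06.

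As matched by name patterns, groups tied to development and excitable cells were at or under the background of 0.462%. The patterns miss some genes of these kinds, members and eligible probes alike, so the shares hold for matched names only. Members outside the patterns lay, among others, at the receptors Gnrhr, Nmbr and Cnr1, the channel Accn5 and the developmental factors Snai2 and Sp8. Factors matched by the Hox, Sox, Fox, Tbx, Gata, Pax and related name patterns had a single member of 1463 eligible probes (0.0684%). It was at Tbx20, a factor of heart development, with 2.98 on the H3K9me2 array and PRDM2 ratios of -0.86 and -0.63. The homeobox genes Cdx2 and Onecut1, whose names these patterns do not match, also held members. Ion channels had 3 of 1186 (0.253%), 2 of them at Trpm3 and the other at Kcnj2, an inward rectifier potassium channel, at 2.81. Neurotransmitter and peptide receptors had 4 of 894 (0.447%), among them the glutamate receptor Grm3 at 3.33 and the muscarinic receptor Chrm3 at 2.94. Muscle genes had 2 of 477 (0.419%). One was at Myf6, a myogenic regulator of differentiated muscle, with 2.96 on the H3K9me2 array and PRDM2 ratios of -1.07 and -0.90. The other was at Tnni3k, a kinase of heart muscle, at 2.53.

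The remaining groups held few members each. A mixed group of H3K9 methyltransferase, reader, demethylase and PRDM family genes had 3 of 153 eligible probes (1.96%), a share that rests on 3 probes. Those named are Uhrf2, a ubiquitin ligase that reads methylated H3K9, at 2.82, and Jmjd2d, an H3K9 demethylase, at 2.49, close to the cut. Genes matched by the germ cell name patterns had 3 of 533 (0.563%). These were Sycp1 of the synaptonemal complex at 3.07, Tdrd3 at 2.95 and Adam3, a sperm surface protein, at 2.69. Boll, a germ cell gene that these patterns miss, also held a member. Cytokines, chemokines and interferons had 3 of 933 (0.322%), keratin and skin barrier genes 3 of 819 (0.366%) and leukocyte surface genes 7 of 1474 (0.475%). Defensins and secretory proteins had 2 of 377 (0.531%). Serpin, P450, UGT, sulfotransferase and apolipoprotein genes had 5 of 1036 (0.483%). Ribosomal protein genes had 4 of 986 (0.406%) and cell cycle and replication genes 5 of 1066 (0.469%). Of the 20 groups, 13 lay above the background and 7 below. In no group were 350 members (63.9%), which were 0.362% of the eligible probes outside the groups, and without olfactory receptors 0.395% of eligible probes were members.

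Members formed pairs but no longer runs, and the share of members among eligible probes was above the background at most distances from a member. It was also above the background near the other probes past the H3K9me2 cut, except from 100 kb to 1 Mb when olfactory receptors were left out. With a joining distance of 1000 bp between midpoints, 526 members stood alone, 11 pairs were found, and there was no run of 3 or more. Another member lay within 1000 bp of 22 members (4.01%), within 100 kb of 22.4% and within 1 Mb of 54.6%, shares that can only grow with distance. For the 452 members outside the olfactory genes these shares were 3.98%, 15.5% and 45.8%. The median distance to the nearest member was 848 kb. Among eligible probes up to 250 bp from a member, 1.63% were members themselves, 6 of 367 ordered pairs, against the background of 0.462%. The share was 1.13% from 250 to 500 bp and again from 500 to 1000 bp, 0.485% from 1000 to 2000 bp, 0.939% from 2 to 10 kb, 1.51% from 10 to 100 kb and 1.11% from 100 kb to 1 Mb. Without olfactory receptors the shares over the same 7 steps were 1.81%, 0.851%, 1.06%, 0.562%, 0.617%, 0.854% and 0.578%, beside a background of 0.395%. The shares up to 1000 bp rest on 4 to 10 ordered pairs in each step. Around the other probes past the H3K9me2 cut, olfactory receptors included, the share of members was also above 0.462% in all 7 steps. In order of distance it was 1.23%, 1.22%, 0.749%, 0.876%, 0.736%, 0.741% and 0.681%. From 250 to 500 bp and from 1000 to 2000 bp it exceeded the share near members. Without olfactory receptors the shares around these other probes were 0.971%, 0.948%, 0.431%, 0.619%, 0.511%, 0.440% and 0.384%, beside 0.395%. The last of these was under that background.

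Pairs differed in what lay around them. The pair at Ggnbp2 spanned 382 bp and that at Zfp40 spanned 203 bp, with no other eligible probe inside. At Ggnbp2 the other 9 probes within 1000 bp had a median H3K9me2 ratio of -0.07, and at Zfp40 the other 5 had -0.92. Around the pair at Olfr971, which spanned 860 bp, the other 9 probes had a median of 1.19. Around the pair at Prl3a1, a placental prolactin relative, the other 7 probes had 1.53.

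Of 2003 windows of 1 Mb with an eligible probe, 402 held a member and 30 held 3 or more. Those 30 windows, picked by their count of members, held 125 members, of which 74 were olfactory. The window with the most members was 38 to 39 Mb of chromosome 9, with 11 of 210 eligible probes, each at a different olfactory receptor gene. Their H3K9me2 ratios ran from 2.59 at Olfr921 to 3.39 at Olfr26. The next megabase of chromosome 9 held 6 of 203. On chromosome 19, the window from 12 to 13 Mb held 6 of 194, of which 5 were olfactory and 1 was at Keg1, an acyltransferase-like gene of the kidney, at 3.58. On chromosome 2, the window from 85 to 86 Mb held 5 of 79, all olfactory.

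The prolactin cluster on chromosome 13, from 27 to 28 Mb, was the window with the most members outside the olfactory genes. It encodes prolactin and its relatives, hormones made mainly by the pituitary and the placenta. Here 9 of 133 eligible probes were members (6.77%), at 7 genes. Prl6a1 had the ratio of 3.89 given above, and Prl3b1, a placental lactogen, had 3.25, with PRDM2 ratios of -1.26 and -3.14. Prl8a8 had members at 2.94 and 2.78, and Prl3a1 at 2.80 and 2.72. Prl7a1, Prl7c1 and Prl7d1 had 1 member each, at 2.71, 2.62 and 2.55. The promoters differed in their other eligible probes. At Prl3a1 and Prl8a8 these had median H3K9me2 ratios of 2.01 and 1.08. At Prl7c1 they ran from -4.77 to 1.07 and at Prl7d1 from -4.00 to 1.31, most of them below the median of all eligible probes. Over all 133 eligible probes of the window, members included, the median H3K9me2 ratio was -0.01, against -1.09 for all eligible probes, and 21 passed the H3K9me2 cut. The window's eligible input was also lower, at 7.70 against 9.33. Its PRDM2 medians were -1.26 on both arrays.

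**Figure D4:**
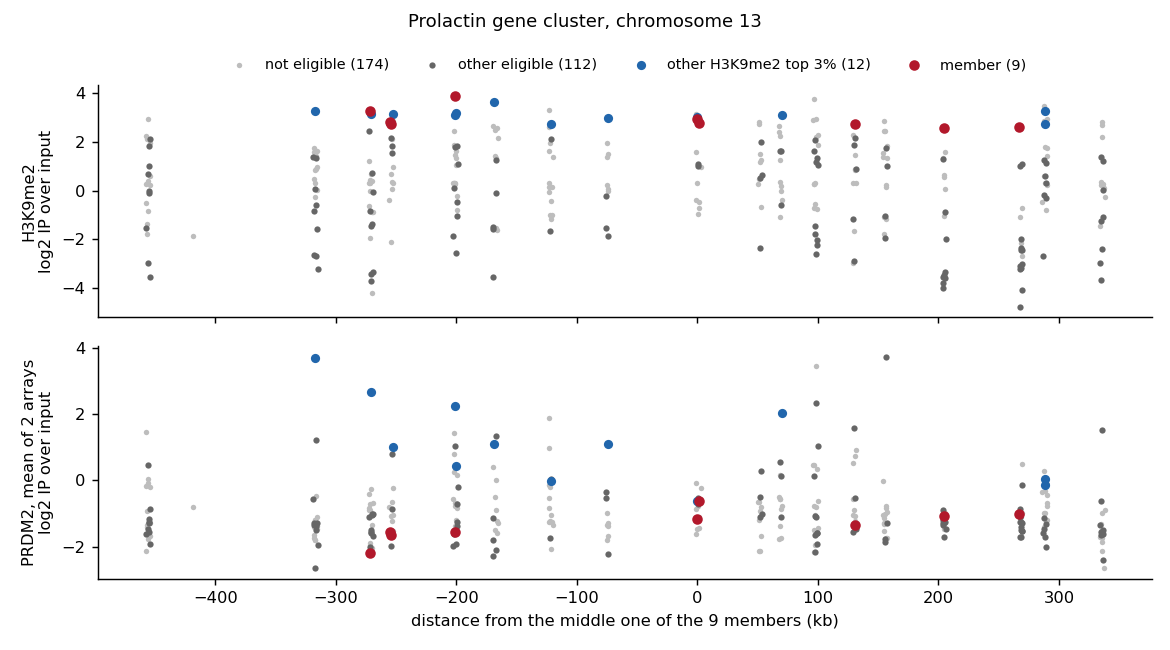
Log2 IP over input of each probe in the window of the prolactin genes, on the H3K9me2 array (top) and as the mean of 2 PRDM2 arrays (bottom), against distance in kb from the middle one of the 9 members by position. The 9 members (red) lie at 7 genes along the cluster with PRDM2 means from -2.20 to -0.62, and the 12 other probes past the H3K9me2 cut (blue) have means from -0.62 to 3.70, as the rule sets.

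A further window, 91 to 92 Mb of chromosome 5, held 5 of 126 eligible probes at 5 genes. Alb, which encodes serum albumin, stood at 2.58 and its neighbour Afm, encoding the vitamin E carrier afamin, at 2.94. The chemokine genes Cxcl15 and Cxcl1 stood at 3.06 and 2.80, and Cox18, which inserts proteins into the mitochondrial inner membrane, at 3.30. Their PRDM2 ratios ran from -1.42 to -0.84 on array 1 and from -1.64 to -0.63 on array 2. By chromosome, the share of eligible probes that were members was highest on chromosome 16 (0.785%), chromosome 9 (0.699%) and chromosome 13 (0.662%). It was lowest on chromosome 8 (0.230%), chromosome 15 (0.247%) and chromosome 11 (0.277%). Without olfactory receptors chromosome 9 had 0.366% and chromosome 13 had 0.656%.

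Probes beside a member tended to have a raised H3K9me2 ratio. Autosomal probes of 35 to under 45% GC that were no members had a median H3K9me2 ratio of 0.29 up to 250 bp from a member, -0.08 from 250 to 500 bp, -0.22 from 500 to 1000 bp, -0.55 from 1000 to 2000 bp and -0.79 from 2000 to 5000 bp, against -0.97 over all such probes. The medians thus stood lower in each step away from the members. Within 500 bp of a member there were 1196 such probes, of which 5.52% were themselves past the H3K9me2 cut, against 2.40% of all such probes. Among eligible probes these shares were 7.53% and 2.55%, and in the lowest decile of input 9.52% and 5.32%. On PRDM2 arrays 1 and 2 their medians were -1.17 and -1.09, against -1.22 and -1.15 over all such probes.

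**Figure D5:**
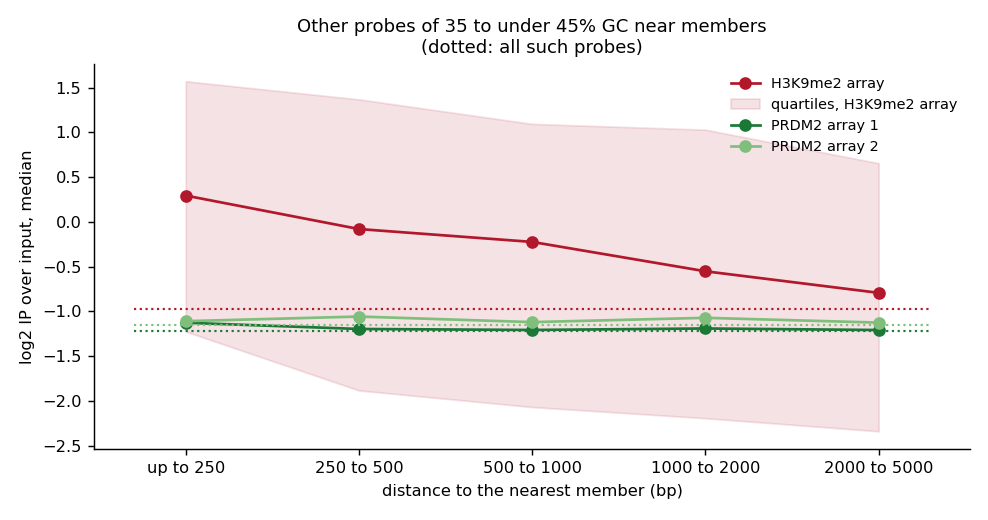
Median log2 IP over input of autosomal probes of 35 to under 45% GC that were no members, by distance in bp to the nearest member, on the 3 arrays; the band spans the quartiles on the H3K9me2 array, and dotted lines are the medians of all such probes. The H3K9me2 median goes from 0.29 up to 250 bp to -0.79 at 2000 to 5000 bp, while both PRDM2 medians stay near their dotted lines.

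The signal behind these ratios was low in both dyes. Within 500 bp of a member, the median log2 input on the H3K9me2 array was 7.45 against 9.23 and the IP was 6.97 against 7.90. These medians compare probes of unlike input, and the part of input in the raised ratio was not tested. Among the 876 eligible neighbours, the median ratio was -0.42 against -1.10. A split by decile of input was chosen after the neighbour values were seen. In it the median ratio was higher near members in all 10 deciles, by 0.09 to 0.93. The mean difference of 0.63 was 0.51 when taken within deciles of input, and it was below 0 in 2 of the 10, at -0.015 in decile 7 and -0.079 in decile 10. Where input and IP were both well above background, the neighbours stood at 0.48 (633 probes) and all such probes at -0.43.

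Probes outside the members' range of GC gave a second view of the neighbourhood. Under 35% GC, 487 probes within 500 bp of a member had a median H3K9me2 ratio of 0.29 against -0.51 over all such probes, a difference of 0.80. Of these 487 probes, 39.4% had a surrogate value in place of a dim IP signal and 19.3% in both dyes, against 36.4% and 9.05% of all such probes. The 99 with both signals well above background stood at 1.33 against 0.66. From 45 to under 55% GC, 90 probes near members had 0.39 against 0.03, and at 55% GC or more, 19 probes had 0.89 against 1.06. These neighbour differences depended on the processing: with normexp the difference under 35% GC was -0.0078, and around the probes chosen with input above the lowest 25% it was -0.58. In the 35 to under 45% class the same settings gave -0.0067 and -0.025 in place of 1.14. Near the other 3015 probes past the cut, the difference under 35% GC was 0.76, against 0.80 near members. In the 35 to under 45% class it was 0.51, against 1.14, but these values rest on unlike sets of probes. The value near members left out members only, and 5.52% of those neighbours were past the H3K9me2 cut. The value near the other 3015 probes left those probes out instead, which removed most neighbours past the cut. Whether the neighbourhoods differ over like sets in this class was not tested.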

How the data were processed

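Chromatin immunoprecipitates and input DNA were read on 3 two-colour arrays, 2 for PRDM2 and 1 for H3K9me2. The deposited processed intensities came, per the file headers, from Agilent Feature Extraction 10.5.1.1, with background subtraction, detrending, dye normalization and surrogate values for dim spots. Mean signal and local background intensities were deposited without normalization. The deposited log10 ratio and its error were those of the scanner software, and the error was used on a log2 scale. The other deposited columns, flags of 0 or 1, marked control, outlier, saturated and well-above-background spots. The authors' deposited value table held log2 values of IP over input, as judged from its comparison with the scanner files (Pearson r across probes 0.965, 0.940 and 0.972 for PRDM2 arrays 1 and 2 and the H3K9me2 array). Its medians were 0.124, 0.103 and 0.278, and neither labels nor headers state its scaling and centring.

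Ratios were log2 of Cy5 over Cy3 processed signal, neither centred nor replaced for outliers. Members were chosen by the rule given above, and members and gene lists were chosen with earlier results of these data known. Probes under 1 gene name formed promoters, split at gaps over 10000 bp. Gene groups were sets of name patterns, which miss some genes of the kind named. Names are those of the array: of the 510 with a member, 428 were current symbols, 73 were synonyms and 9 were unmatched in RefSeq. Of 16513 probes whose sequence matched a GRCm38 start window, 1.16% had the same position, so array positions are of another build. Named were the 15 promoters with the most members, the pairs, the 5 windows with the most members, the 5 highest members, up to 3 promoters per group, the probes beside each cut and 5 promoters without members. Predicted genes and chromosome 18, with 19 members, were counted but not named, and a few genes that the rule named are not reported here. Selection and distance counts were tested on simulated data. The number of arrays limits precision: H3K9me2 had 1. Alternatives were normexp (offset 50) and loess from limma 3.58.1 in R 4.3.3, the value table, other cuts, GC windows, flags and joining distances, single PRDM2 arrays, and, chosen after seeing the data, brighter input and no olfactory receptors. Normexp was run on mean signal and local background, without detrending or normalization between dyes, and loess on the processed signals. Tables were made with pandas 2.3.3 and numpy 2.4.6 in Python 3.11.15, and plots with matplotlib 3.10.9.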

Additional observations from a re-analysis of the deposited data

How the results depend on the processing

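The set was sensitive to how it was made. The 548 members, 0.462% of eligible probes under 510 gene names, became 345 (0.291%) under 330 names with normexp and 947 (0.798%) under 840 with loess, which share 39 and 245 with the 548. There were 152 (0.128%) under 143 names at the top 1% and 1002 (0.844%) under 900 at the top 5% of H3K9me2, 0.114% under 126 names with PRDM2 under the top 50%, 311 (0.475%) under 294 at 35 to under 40% GC, 0.231% under 119 names at 40 to under 45% GC, and 132 (0.173%) under 128 with brighter input. Using 1 PRDM2 array gave 838 (0.706%) to 1212 (1.02%) probes and 762 to 1072 gene names. The share with another member within 1000 bp, 4.01%, was 1.16% with normexp, 10.9% with loess, 6.96% where IP had to be well above background, 1.32% at the top 1%, 8.78% at the top 5%, 1.48% with PRDM2 under the top 50%, 0% at 40 to under 45% GC and with brighter input, 2.19% for a distance of 500 bp, and 5.73 to 10.1% with 1 PRDM2 array. Runs of 3 or more, 0 otherwise, numbered 3 with loess and 4 at the top 5%. The difference of neighbours under 35% GC, 0.80, was 0.36 with loess, 0 with the value table, where the medians of both sets are exactly 0, -0.0078 with normexp and -0.58 with brighter input. In the 35 to under 45% class it was -0.0067 and -0.025 under the last 2. With normexp the probes chosen had a higher input than eligible ones, by 1.24 log2. The causes of these changes were not tested. No probe had a copy to leave out, and leaving out outlier and saturated spots kept 499 of the 548. No paired analysis was possible because the groups share fewer than 2 replicate numbers. One H3K9me2 array gives no spread between replicates, and most members have a low input.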

Other observations

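On the X chromosome, which the rule leaves out, 4692 probes had the same GC and input, with a median H3K9me2 ratio of -0.19 and a median log2 input of 8.34. Of these, 314 (6.69%) were past the autosomal H3K9me2 cut and 35 (0.746%) past the whole rule. The highest of the 35 was at Olfr1320, an olfactory receptor gene, with 3.85 on the H3K9me2 array and PRDM2 ratios of -1.61 and -0.56. Tmem27, a gene of the kidney and pancreatic islets, had such probes at 3.37 and 2.82. Atrx, a chromatin remodeller, had 2.71 with PRDM2 ratios of -0.84 and -0.61.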
